A study of Oryctolagus cuniculus with 4 samples.

Results

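AQP8 and SLC44A4 encode membrane transport proteins. AQP8 is an aquaporin, a channel that lets water and also hydrogen peroxide and ammonia across membranes. SLC44A4 belongs to the choline-transporter-like family and is known for the uptake of thiamine pyrophosphate, the active form of vitamin B1, in the colon. The urothelium, the epithelium that lines the bladder, stores urine behind a tight barrier. It is built of basal cells marked by KRT5, intermediate cells and superficial umbrella cells covered by uroplakin proteins. Transport of water and solutes across its membranes is therefore of interest both at rest and while the layer is rebuilt after a wound.

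The 2 genes were taken by their symbols from the 18475 genes of the count tables, where AQP8 is ENSOCUG00000001864 and SLC44A4 is ENSOCUG00000006970. They had been picked with earlier results on these samples known, and a record of the values used was not among the sources. Their pattern over cell types and their difference between injured and normal epithelium are therefore given as descriptions, without a test. The bladder mucosa of adult New Zealand rabbits had been dissociated and profiled cell by cell in droplets, in 4 samples. Normal_1 and Normal_2 came from unwounded mucosa. Injury_1 and Injury_2 came from mucosa harvested on day 10 after a piece of it had been resected, when new urothelium had just closed over the wound. The study calls the samples of a group biological replicates. Whether they came from separate animals was not given in the sources used here, so errors and p-values measure the spread between these samples, which may be technical in part.

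Each sample was 1 library with 28745017 to 47881609 unique molecular identifiers (UMIs), where a UMI count is a number of captured RNA molecules, and 4308 to 6081 cells passed the filter. Normal_1 was the shallowest, with a median of 4814 UMIs in a kept cell against 6755 to 7186 in the others. Any pair of libraries shared 8 to 13 cell barcodes. Of 28 clusters, those with the epithelial markers held 1531 of 21945 cells. They were 10.2% of the cells in Normal_1, 2.82% in Normal_2, 9.31% in Injury_1 and 6.40% in Injury_2, although the tissue is labelled as urothelium. The summed level of 8 epithelial markers in them was 4481 to 7626 UMIs per 1000000 UMIs (CPM, the unit used for all levels below).

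AQP8 was an epithelial transcript of the normal bladder. In epithelial-like cells it stood at 44.2 CPM in Normal_1 and 40.8 CPM in Normal_2, against 1.24 CPM in Injury_1 and 1.78 CPM in Injury_2. These levels came from 233, 123, 9 and 10 UMIs, and both normal samples lay far above both injured ones. The mean was 42.5 ± 2.42 CPM in normal and 1.51 ± 0.381 CPM in injured samples (SD, n = 2 each). The log2 fold change fitted by edgeR was -5.06 with a standard error of 0.365, given without a test since these levels may have served to choose the gene. Epithelial-like cells held 97.9% of all AQP8 UMIs of Normal_1 and 93.2% of those of Normal_2.

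Outside the epithelium AQP8 was close to nothing. Among the classes with at least 20 cells in every sample, the highest level was 1.92 CPM in the T cell-like cells of Normal_2, which was 1 UMI. Fibroblast-like cells, the largest class, held 0.310 CPM in Normal_1, 0.256 in Normal_2, 0 in Injury_1 and 0.149 in Injury_2. They are a class that should lack the gene. The exact Poisson 95% intervals, which cover counting error only, overlapped among all these other classes, so no order can be read among them.

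**Figure D1:**
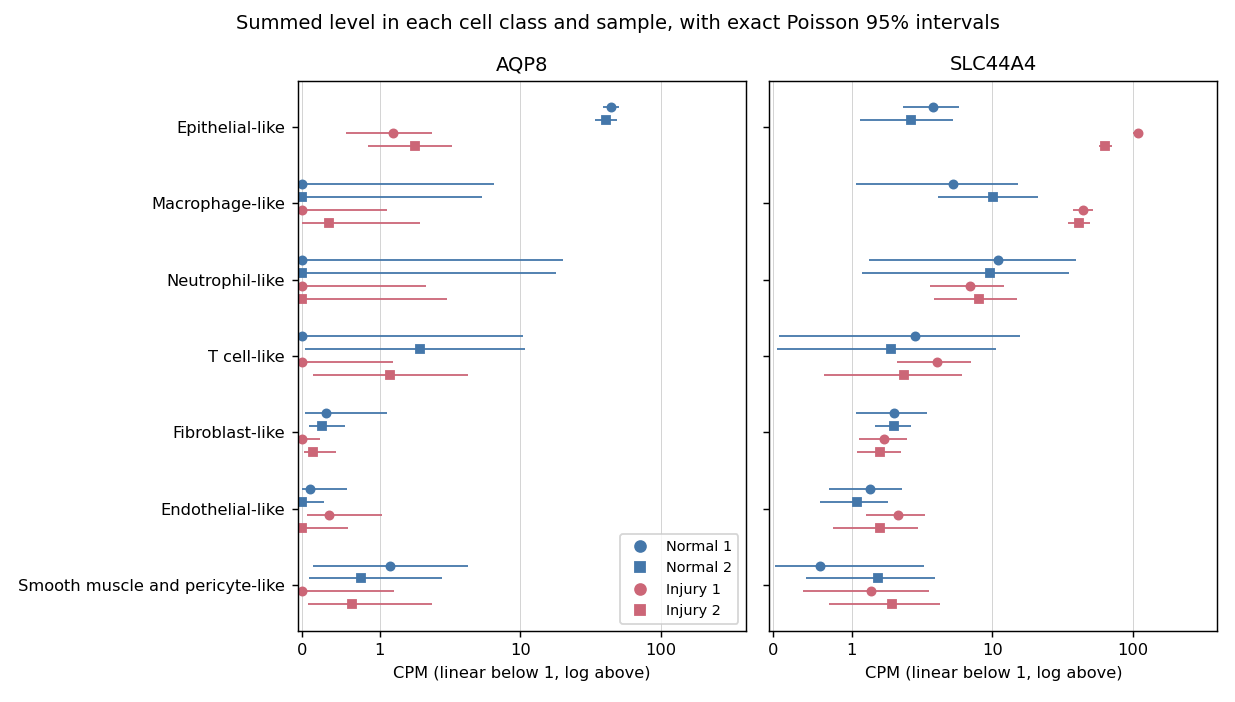
Level of AQP8 (left) and SLC44A4 (right) in CPM for 7 cell classes, 1 point for each sample with its exact Poisson 95% interval on a scale that is linear below 1 and logarithmic above. AQP8 stands apart only in the epithelial-like cells of the normal samples, at 40.8 and 44.2, while SLC44A4 stands apart in the epithelial-like (63.7 and 108) and macrophage-like cells (41.4 and 44.6) of the injured samples.

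SLC44A4 showed the opposite difference between the groups. In epithelial-like cells it was at 108 CPM in Injury_1 and 63.7 CPM in Injury_2, against 3.79 CPM in Normal_1 and 2.65 CPM in Normal_2. The UMIs behind these levels were 784, 358, 20 and 8, and the groups did not overlap. The mean was 85.9 ± 31.4 CPM in injured and 3.22 ± 0.807 CPM in normal samples (SD, n = 2 each). Injury_1 was thus clearly above Injury_2, yet the gap between the groups was larger than that spread. The fitted log2 fold change was 4.46 with a standard error of 0.371, likewise given without a test.

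The name urothelial holds for SLC44A4 only in part. Among the same classes, with at least 20 cells in every sample, the order of levels in the injured samples ran from epithelial-like to macrophage-like cells (44.6 CPM in Injury_1 and 41.4 in Injury_2) and then to neutrophil-like cells (6.98 and 8.10 CPM). T cell-like cells stood at 4.05 and 2.36 CPM, and their intervals overlapped those of the neutrophil-like cells. Fibroblast-like, endothelial-like and smooth muscle-like cells lay between 1.38 and 2.12 CPM and could not be ordered. In the normal samples the order was not the same. Neutrophil-like cells had 10.9 and 9.73 CPM from 2 UMIs each and macrophage-like cells 5.25 and 10.2 CPM, and the intervals of both overlapped those of the epithelial-like cells. In Normal_2 the macrophage-like interval of 4.10 to 21.0 CPM lay above the fibroblast-like one of 1.47 to 2.67 CPM.

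The stromal levels of the 4 samples had overlapping intervals. Fibroblast-like cells held SLC44A4 at 2.02 and 2.01 CPM in the normal and at 1.70 and 1.59 CPM in the injured samples. Of all SLC44A4 UMIs, epithelial-like cells held 77.9% and 65.7% in the injured but 37.7% and 9.52% in the normal samples, where most of the few UMIs were spread over the other classes.

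Shares of cells gave the same picture at a fixed depth. With each cell thinned to 1000 UMIs, which left 1472 epithelial-like cells after shallower ones were dropped, an AQP8 UMI was expected in 3.43% of epithelial-like cells of Normal_1 and 4.18% of Normal_2, against 0.0946% of Injury_1 and 0.156% of Injury_2. In fibroblast-like cells, which should lack the gene, the thinned share was 0.0272% and 0.0254% in the normal and 0% and 0.0140% in the injured samples. Without thinning, 87 of 441 epithelial-like cells in Normal_1 (19.7%), 43 of 170 in Normal_2 (25.3%), 7 of 566 in Injury_1 (1.24%) and 6 of 354 in Injury_2 (1.69%) held an AQP8 UMI. Median depths of the epithelial-like cells were 12916, 19868, 11932 and 16316 UMIs in that order, against 5086, 7010, 7925 and 8423 in fibroblast-like cells.

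For SLC44A4 the thinned share was 12.9% of epithelial-like cells in Injury_1 and 7.31% in Injury_2, and 0.371% in Normal_1 and 0.364% in Normal_2. In fibroblast-like cells it was 0.153% in both injured samples, 0.188% in Normal_1 and 0.193% in Normal_2. In CPM, the interval of normal epithelium was 2.32 to 5.86 in Normal_1 and 1.14 to 5.22 in Normal_2, and it overlapped the fibroblast-like intervals of 1.07 to 3.45 and 1.47 to 2.67. Without thinning the gene was found in 61.7% and 46.9% of the injured and 4.31% and 3.53% of the normal epithelial-like cells.

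The 2 genes also differed in how their UMIs were spread. AQP8 was found in 87 cells of Normal_1 and 43 of Normal_2, of which 41 and 21 held 1 UMI. There 12 and 6 cells had 5 UMIs or more, with maxima of 21 and 19. The 5% of cells with most AQP8 UMIs carried 62.7% of them in Normal_1 and 57.7% in Normal_2. SLC44A4 was spread over more cells, 349 of Injury_1 and 166 of Injury_2, of which 40 and 13 had 5 UMIs or more. Its top 5% carried 22.1% in Injury_1 and 26.8% in Injury_2, with no cell above 10 UMIs. Such a share also rises where a gene has fewer UMIs per cell, as AQP8 had. For SLC44A4 in the normal samples, with 20 and 8 UMIs, it was 100%. The cells with an AQP8 UMI were somewhat deeper than those without in both normal samples (median 14498 against 12531 UMIs, and 20816 against 19165).

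**Figure D2:**
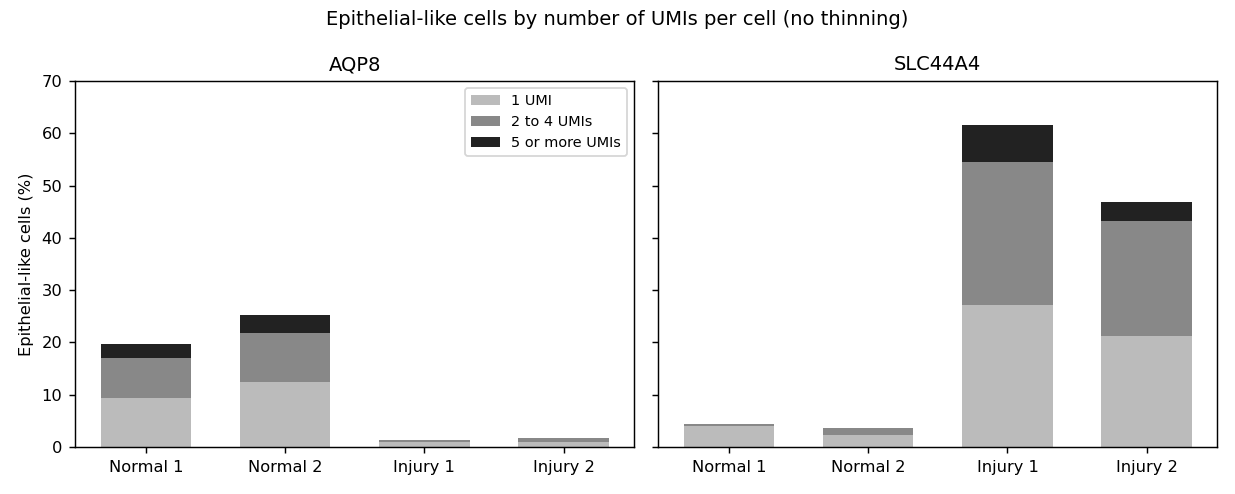
Percentage of epithelial-like cells of each sample with 1, 2 to 4, or 5 or more UMIs of AQP8 (left) and SLC44A4 (right), without thinning, as stacked bars. AQP8 was found in 19.7% and 25.3% of normal cells and SLC44A4 in 61.7% and 46.9% of injured cells, with the other group below 5% in each panel.

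Hardly any cell held both transcripts. Among the 1531 epithelial-like cells 2 had a UMI of each, where the counts of each sample taken separately would give 12.4 if detection of one were unrelated to the other. The odds ratio stratified by sample was 0.0984. After thinning to 1000 UMIs no cell held both, but only 0.218 cells would then have been expected, so that depth says little. These are descriptions of cells that share a library. The expected number pools the epithelial clusters described next, between which the levels of both genes differed. The part of that in the shortfall was not tested.

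Within the epithelium the genes sat at opposite ends. The cells fell into a cluster led by KRT5, LAMB3, AQP3 and SERPINB5 and a cluster led by SPP1, CRISP3, CYP4B1 and CTSE. In the KRT5-led cluster AQP8 was at 77.6 CPM in Normal_1 and 52.8 in Normal_2, and in the other cluster at 4.17 and 2.76 CPM. SLC44A4 was at 171 CPM in Injury_1 and 106 in Injury_2 in the SPP1-led cluster and at 46.0 and 18.5 CPM in the KRT5-led one. The SPP1-led cluster held 368 of 566 cells in Injury_1, 215 of 354 in Injury_2 and 239 of 441 in Normal_1, but 57 of 170 in Normal_2.

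The difference between injured and normal samples stood within both clusters for SLC44A4 and within the KRT5-led cluster for AQP8. AQP8 in the KRT5-led cluster was 2.20 CPM in Injury_1 and 3.70 in Injury_2, below both normal samples. In the SPP1-led cluster AQP8 had 1 UMI in Injury_1 and 0 in Injury_2. The Normal_2 interval there, 0.334 to 9.96 CPM, overlapped those of both injured samples. SLC44A4 in the SPP1-led cluster was 5.83 CPM in Normal_1 and 11.0 in Normal_2, below both injured samples. In the KRT5-led cluster it was 2.09 CPM in Normal_1, with no UMI in Normal_2, also below both injured samples. Both genes were among the 2000 variable genes used for clustering, so levels by cluster are descriptions.

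In finer sub-clusters AQP8 was highest where KRT5 led. Of 10 sub-clusters 6 were kept, the others being set aside for few UMIs, for genes of other classes or for proliferation genes. Sub-cluster 4, led by KRT5, PTHLH and ITGA2, held AQP8 at 88.0 CPM in Normal_1 (120 cells), 112 in Normal_2 (10 cells), 4.17 in Injury_1 (38 cells) and 9.57 in Injury_2 (28 cells). Sub-cluster 0, led by IL1B, F3 and PLAU and also by LAMB3 and LAMA3, held 70.9, 52.5, 0.953 and 0.728 CPM in the same order. In sub-cluster 3, led by the uroplakin gene UPK1B, AQP8 was at 12.6 and 30.4 CPM in the normal samples from 6 and 5 UMIs, and in sub-clusters 1 and 2 it did not pass 2.20 CPM.

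SLC44A4 of the injured samples was high where KRT5 did not lead. It reached 167 and 137 CPM in sub-cluster 1, led by FLRT3, SF3B2 and CRISP3, and 151 and 78.2 CPM in sub-cluster 2 for Injury_1 and Injury_2. In sub-cluster 3 the 2 injured samples were far apart, at 163 and 42.5 CPM. Sub-cluster 6, led by PIGR, the carrier of antibodies across epithelia, and SPP1, had 175 and 171 CPM. Only 3 of its 102 cells came from normal samples. Sub-cluster 0 stood at 48.1 and 18.9 CPM, and the KRT5-led sub-cluster 4 had the lowest levels, 12.5 and 5.74 CPM.

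**Figure D3:**
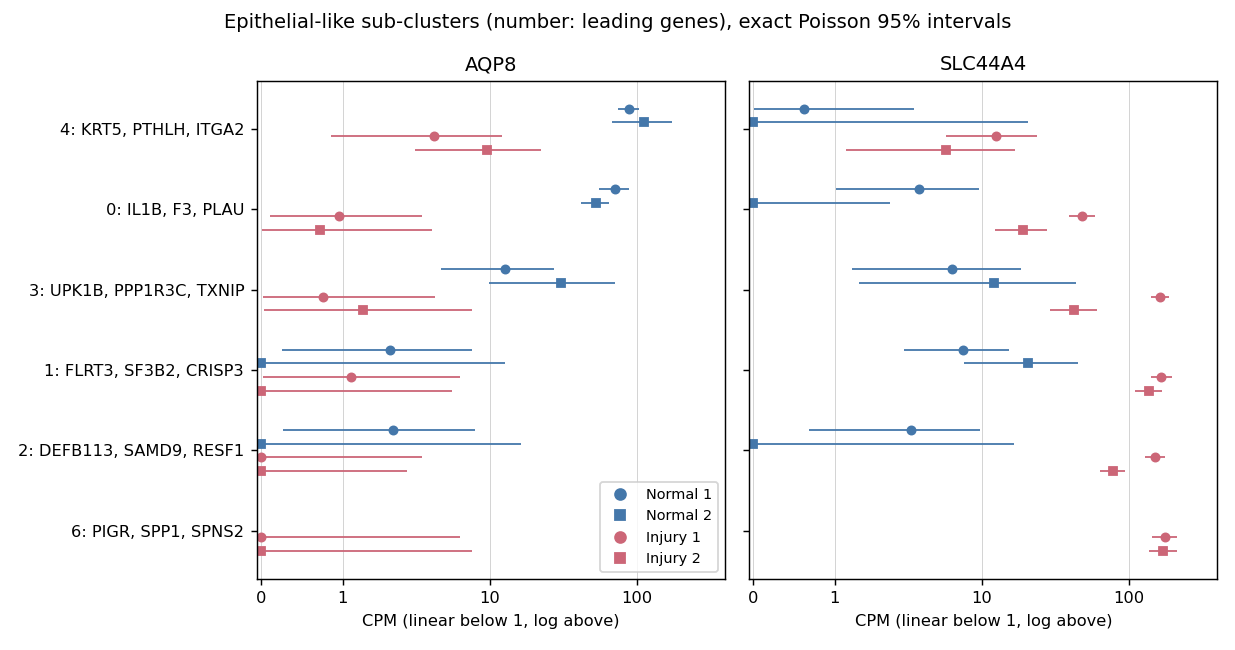
Level of AQP8 (left) and SLC44A4 (right) in CPM in the 6 kept epithelial-like sub-clusters, named by number and leading genes, 1 point for each sample with at least 10 cells and its exact Poisson 95% interval. In the KRT5-led sub-cluster at the top AQP8 of the normal samples stands at 88.0 and 112 and SLC44A4 of the injured samples at 12.5 and 5.74, while in sub-clusters 1 and 2 AQP8 is at or below 2.20 and in sub-cluster 6 SLC44A4 is at 175 and 171.

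Sorting cells by detected markers instead of clusters showed the same contrast between cells with only KRT5 and cells with only a uroplakin. Cells with a KRT5 UMI and no uroplakin UMI (UPK1B or UPK3B) held AQP8 at 86.0 CPM in Normal_1 and 44.3 in Normal_2. Cells with a uroplakin UMI and no KRT5 UMI held it at 11.7 CPM in Normal_1, and at 0 of 414633 UMIs in Normal_2, which allows up to 7.24 CPM by the limit of 3 counts used for every count of 0. For SLC44A4 the uroplakin cells held 133 CPM in Injury_1 and 87.1 in Injury_2, and the KRT5 cells 26.5 and 24.5 CPM. The 405 cells with neither held AQP8 at 35.9 ± 18.6 CPM in normal and SLC44A4 at 68.2 ± 4.18 CPM in injured samples (SD, n = 2 each). The 134 cells with both held SLC44A4 at 73.0 ± 18.3 CPM in injured samples (SD, n = 2). AQP8 in them was at 40.5 CPM in the 1 normal sample with at least 10 such cells.

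The mitochondrial share of cells bore on AQP8 in 1 normal sample. In Normal_2, 115 of the 123 AQP8 UMIs of epithelial-like cells lay in the 101 cells with 10% to 15% mitochondrial UMIs, at 55.7 CPM. The 69 cells at or below 10% held 8 UMIs, or 8.41 CPM. In Normal_1 the cells at or below 10% were at 52.3 CPM and those above at 39.1 CPM. With the limit set at 10% the level of both normal samples remained above the injured ones (0.721 and 2.15 CPM), Normal_2 by a much smaller margin. The exact Poisson interval of Normal_2, 3.63 to 16.6 CPM, then overlapped that of Injury_2, 0.927 to 4.23 CPM. Normal_2 and Injury_2 could therefore not be ordered at this limit. The part of mitochondrial share in the result was not tested.

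Macrophage markers in the epithelial-like class were far below their level in macrophage-like cells. The summed level of 8 macrophage markers there was 9.10 and 61.3 CPM in the normal and 96.0 and 26.9 CPM in the injured samples, against 13854 to 23044 CPM in macrophage-like cells, and none of the 8 was at 0 in all samples. Without the cells that held a UMI of C1QA, C1QB, C1QC, PTPRC, CDH5 or MYH11, AQP8 was at 43.6 ± 3.65 CPM in normal and 1.40 ± 0.235 in injured samples, and SLC44A4 at 3.35 ± 0.0949 and 87.9 ± 34.1 CPM (SD, n = 2 each). The sum of 4 fibroblast markers was 74.5 and 952 CPM in the normal and 665 and 805 CPM in the injured samples. That of 4 neutrophil markers was 32.8 and 69.3 CPM in the normal against 136 and 138 CPM in the injured samples. The sums of 5 T cell markers (4.74 and 8.95 against 16.3 and 11.2 CPM) and of 4 mast cell markers (9.48 and 11.3 against 0.828 and 1.78 CPM) also separated normal from injured samples. The part of these markers in the results was not tested. UMIs of DCN, a fibroblast gene, were in 47.4% of epithelial-like cells and in 29.3% of endothelial-like cells.

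Among macrophage-like cells SLC44A4 was highest in the cluster led by genes of complement C1Q. This cluster, led by C1QA, C1QB and the mannose receptor gene MRC1, held it at 20.3 CPM in Normal_1, 23.1 in Normal_2, 65.7 in Injury_1 and 76.8 in Injury_2, from 3, 7, 143 and 115 UMIs. The cluster led by HLA-DRA and CD74, genes of antigen presentation, held 1.86 and 3.58 CPM in the injured samples and no UMI in the normal ones, which allows up to 7.08 and 7.84 CPM by the limit of 3 counts. Neutrophil-like cells of the cluster led by IL1B, LYZ and S100A8 held 7.45 and 7.61 CPM in the injured and 11.2 and 10.3 CPM in the normal samples. Within each injured sample the C1QA-led cluster was thus above these other 2 clusters by more than the counting intervals. A further neutrophil-like cluster of 213 cells, led by S100A8, S100A12 and S100A9, had a median of 699 UMIs. It held 1 SLC44A4 UMI and was too shallow to be ordered.

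**Figure D4:**
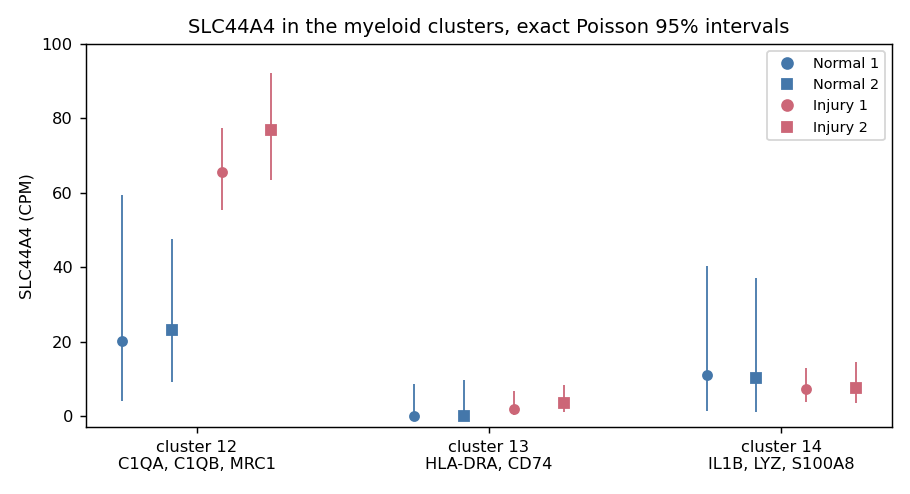
SLC44A4 in CPM in 3 myeloid clusters, named by leading genes, 1 point for each sample with its exact Poisson 95% interval. In the C1QA-led cluster the injured samples are at 65.7 and 76.8 and the normal ones at 20.3 and 23.1 with wide intervals, and the HLA-DRA-led cluster stays at or below 3.58.

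In the C1QA-led cluster the SLC44A4 level of both injured samples was above that of both normal ones, which had 41 and 59 cells. The interval of Normal_1, 4.19 to 59.4 CPM, overlapped that of Injury_1, 55.4 to 77.4 CPM. With each cell thinned to 1000 UMIs the groups overlapped. The thinned share was 5.94% in Normal_1 and 1.73% in Normal_2, against 5.11% in Injury_1 and 5.42% in Injury_2. The Normal_1 share rests on 3 cells with 1 UMI each and a median depth of 1097 UMIs. At 3000 UMIs the share was 0% in Normal_1 and 5.87% in Normal_2, against 14.5% in Injury_1 and 15.1% in Injury_2. Of the 41 and 59 normal cells, 20 and 10 were too shallow for that depth. The log2 fold change fitted by edgeR was 1.52 with a standard error of 0.428, given without a test since these levels may have served to choose the gene. AQP8 had 1 UMI in these 623 cells.

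Epithelial RNA in the macrophage-like cells was measured beside this. The summed level of 8 epithelial markers in the C1QA-led cluster was 115 and 16.5 CPM in the normal and 80.9 and 37.4 CPM in the injured samples, against 4481 to 7626 CPM in epithelial-like cells, and CDH1 was at 0 in all samples. Without the cells that held a UMI of KRT15, KRT18, KRT7, EPCAM, CDH5 or MYH11, SLC44A4 in the injured samples was as high as with them, at 72.5 and 81.7 CPM, and in the normal samples it was at 0 UMIs in 25 cells of Normal_1, which allows up to 35.7 CPM by the same limit, and at 18.2 CPM in Normal_2. The sum of 5 T cell markers in the C1QA-led cluster was 819 and 1115 CPM in the normal and 207 and 383 CPM in the injured samples. There 4 neutrophil markers summed to 48971 and 77949 against 35472 and 32234 CPM, 6 smooth muscle and pericyte markers to 419.9 and 600.2 against 148 and 66.1 CPM, and 6 endothelial markers to 725 and 458 against 360.0 and 281 CPM. All of these were higher in the normal samples. The sum of 4 mast cell markers was higher in the injured samples, at 9.19 and 10.02 CPM against 0 and 6.60 CPM. Their part in the difference was not tested.

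The fitted genes give the background for the lists that follow. Of 7041 genes tested in epithelial-like cells 122 were called at an adjusted p under 0.05, which is 1.73%, with 47 higher and 75 lower after injury. Of 98 listed genes 63 had a symbol in the tables and 44 were tested, and 1 of these rose and 3 fell. The lists were chosen with earlier results of these data known, so their share of calls is a description only. The median log2 fold change of all genes tested was -0.0026.

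Of the relatives of the 2 genes, 2 aquaporins and 2 choline-transporter-like genes were tested, and none was called. AQP8 and SLC44A4 themselves were given no test. AQP3, a channel for water and glycerol, was at 989 CPM in Normal_1, 3204 in Normal_2, 2172 in Injury_1 and 1645 in Injury_2, and the groups overlapped. AQP11 stood at 2.98 to 5.93 CPM, and 4 of the 7 aquaporins with a symbol had no UMI in epithelial-like cells. SLC44A1, the widely expressed choline transporter, stood at 25.9 to 41.0 CPM with a log2 fold change of -0.22 and a standard error of 0.268. SLC44A3 stood at 2.28 to 5.87 CPM. The medians of both lists, -0.04 for 2 aquaporins tested and 0.28 for 2 choline-transporter-like genes, stand beside -0.0026 for all genes.

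Genes that handle the substrates of the 2 proteins were also not called, with 1 exception. DUOX2, an oxidase that makes hydrogen peroxide at the apical side of epithelia, rose from 0.190 CPM in Normal_1 and 0 in Normal_2 to 9.10 CPM in Injury_1 and 6.77 in Injury_2 (edgeR adjusted p = 0.0351). It was the only one of 6 tested genes of hydrogen peroxide production and removal to be called. The call rests on 1 UMI in the normal samples, and it was lost without Injury_1 (adjusted p = 0.0869) and with the mitochondrial limit at 10% (adjusted p = 0.0603). Its relative DUOX1 was at 7.59 and 6.41 CPM in the injured against 1.33 and 1.99 CPM in the normal samples (adjusted p = 0.115). TXN and PRDX6, which take part in the removal of peroxides, stood at 2209.9 to 4606 and 527 to 615 CPM and were not called, nor were PRDX4 and CAT.

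Thiamine genes showed no call among 7 tested, with a median log2 fold change of -0.08. THTPA, the thiamine triphosphatase, stood at 15.6 and 14.8 CPM in the injured and 5.69 and 4.31 CPM in the normal samples, with non-overlapping groups but an adjusted p of 0.102. The thiamine transporter gene SLC19A2 was at 1.66 and 1.60 CPM against 9.67 and 1.99 CPM, where Normal_1 alone was high. TKT, PDHB and PDHA1, which use thiamine pyrophosphate as a cofactor, stood at 206 to 284, 60.5 to 79.2 and 29.5 to 66.4 CPM. Of the genes from choline to phosphatidylcholine only PCYT1A and CEPT1 were tested, and neither was called.

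For urea and ammonia transport, SLC14A1, a urea transporter, stood at 6.96 to 15.2 CPM and RHBG, an ammonia channel, at 1.33 to 5.70 CPM, and neither was called. Among 5 tested genes of sodium and proton transport, such as the sodium pump subunit ATP1B1 (187 to 337 CPM), none was called.

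LAMA3 and LAMB3, subunits of the laminin that anchors basal cells, fell in the injured samples. LAMA3 went from 91.6 CPM in Normal_1 and 211 in Normal_2 to 7.31 in Injury_1 and 6.59 in Injury_2, a log2 fold change of -4.75 with a standard error of 0.555 (edgeR adjusted p = 0.0272). LAMB3 was at 195 and 348 CPM in the normal against 24.3 and 16.4 CPM in the injured samples (adjusted p = 0.0268). They were 2 of 4 tested basal genes, whose median log2 fold change was -2.41, and KRT5 itself was at 183 and 114 CPM in the normal and 64.8 and 175 CPM in the injured samples, with the groups overlapping.

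CLDN1, a protein of tight junctions, also fell, from 88.2 and 63.3 CPM to 19.9 and 8.90 CPM (edgeR adjusted p = 0.0413). This call was lost without Injury_2 (adjusted p = 0.0694) and with the mitochondrial limit at 10% (adjusted p = 0.0791). OCLN, TJP1 and CGN, other junction proteins, were not called. Both uroplakin genes tested had positive fold changes, 2.52 for UPK3B and 0.79 for UPK1B on the log2 scale, without passing the test. None of the 8 tested urothelial transcription factors was called. GATA3 stood at 2067 and 1604 CPM in the injured against 968 and 611 CPM in the normal samples (adjusted p = 0.134), and KLF5 and PPARG differed less.

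**Figure D5:**
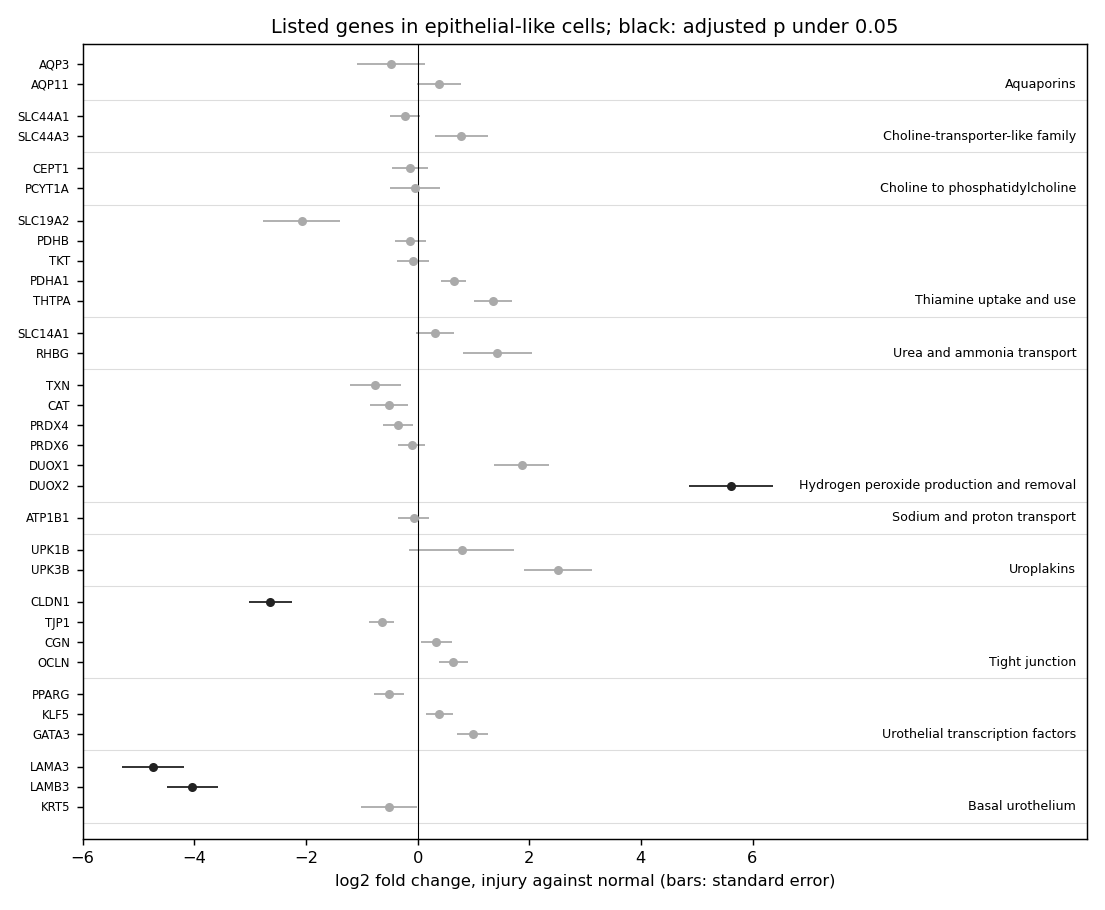
Log2 fold change of injured against normal samples in epithelial-like cells for 32 of the 44 listed genes tested, those named in the text, grouped by list, with standard errors as bars and genes past the threshold in black. LAMA3, LAMB3 and CLDN1 lie on the lower side and DUOX2, whose fold rests on 1 UMI in the normal samples, on the higher side, and the aquaporin and choline-transporter-like relatives lie between -0.47 and 0.78.

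Among the genes most like AQP8 across cell classes were CLDN1, LAMB3, KCNK1 and MMP13, with Pearson r of 0.895, 0.893, 0.875 and 0.840 over 39 class and sample groups that share 4 libraries. KCNK1, a potassium channel gene, was at 53.5 CPM in Normal_1 and 22.9 in Normal_2 in epithelial-like cells. Its log2 fold change for injured against normal samples was -2.01 with a standard error of 0.386. The groups used for likeness came from both conditions, so the choice of genes favours such a difference, which is a description only. MMP13 overlapped between the conditions, at 42.5 and 208 CPM in the normal and 46.2 and 13.9 CPM in the injured samples. Across the 22 sub-cluster and sample groups the closest were LAMA3 (r = 0.901), CRTAC1 (0.846), GPNMB (0.833) and NOP58 (0.833). GPNMB shared the pattern only within epithelium, since it reached 1727 and 1468 CPM in the C1QA-led cluster of the injured samples.

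For SLC44A4 the likeness across classes was weaker, with ABCC3 (r = 0.779), ATP6V1A (0.769), VAMP8 (0.744), RBM47 (0.742) and CTSE (0.729) leading. ABCC3, an exporter of organic anions, was at 81.1 and 45.6 CPM in the injured and 8.91 and 14.6 CPM in the normal epithelial-like cells, and CTSE, an aspartic protease, reached 2776 CPM in Injury_1. Within epithelium GDPD3 (r = 0.942), ETV5 (0.935), SLC39A11 (0.925), MRPS18A (0.922) and TMEM45B (0.922) were closest. GDPD3 was at 67.6 and 44.0 CPM in the injured and 5.50 and 3.65 CPM in the normal samples. The differences of ABCC3 and GDPD3 are likewise descriptions, since both genes were picked over groups from both conditions. AQP8 and SLC44A4 themselves had r = -0.63 across the sub-cluster groups and -0.03 across the classes.

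The neighbours of the 2 genes were taken from the RefSeq annotation of the mOryCun1.1 assembly, used here for gene order only. SLC44A4 lies between EHMT2 and NEU1. The level of NEU1 was not analysed here, and EHMT2 was at 7.59, 7.83, 5.88 and 4.97 CPM in epithelial-like cells of Injury_1, Injury_2, Normal_1 and Normal_2. AQP8 lies between ZKSCAN2, with no UMI in epithelial-like cells, and LCMT1, which was at 53.9, 48.4, 52.3 and 41.4 CPM in the same order.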

How the data were processed

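UMI counts per gene and cell barcode were deposited by the authors as whole numbers without normalization, made with Cell Ranger 6.0.1 (version from the matrix headers) from 3′ droplet libraries. The genome release was not given in the sources used here. The study's cell filter had not been applied to the deposited counts, and its stated limits were applied here. These were at least 500 UMIs and 200 genes, and at most 15% of UMIs on 13 mitochondrial genes. The 21945 cells kept were more than the study reports. Seurat 5.3.0 under R 4.3.3 served for integration and clustering (2000 variable genes, 30 components, resolution 0.8). Clusters were named from marker lists, and a second clustering used the epithelial-like cells alone. Doublets were scored with Scrublet in scanpy 1.11.5 and kept in the main values.

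Levels are the gene's UMIs per 1000000 UMIs of a class in a sample (CPM), a depth-scaled level of 3′ counts that is not compared between genes. Intervals are exact Poisson. UMIs summed per sample were tested over all genes in edgeR 4.0.16 by its quasi-likelihood F test (filterByExpr, TMM, Benjamini-Hochberg threshold 0.05). Standard errors are the fold change divided by the root of its F statistic. On simulated sums over 7041 genes of the epithelial-like class, 61 of 100 4-fold and 99 of 100 16-fold changes were recovered, with 6 false calls of 166. Thinned shares are expectations over all draws.

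The members and lists were chosen with earlier results of these data known. The named genes were AQP8, SLC44A4, listed genes that were called, up to 4 members of each list with the highest CPM, and the 5 most alike genes by Pearson r of log2(CPM + 10). Some genes that met this rule are not reported here. The fit in the C1QA-led macrophage-like cluster, the threshold of 3 proliferation genes for setting clusters aside, the restriction of leading genes to those found in 25% of a sub-cluster's cells, and the removal of cells with UMIs of other types were decided after seeing the data. Clusters were rebuilt here, so they can differ from the study's. Alternatives were other cell filters, doublet removal, other clusterings, scalings, pseudocounts and depths, DESeq2 1.42.0, the replicate number as a block, and leaving out each sample. Tables were made with Python 3.11.15.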

Additional observations from a re-analysis of the deposited data

Results flagged for a closer look

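SLC44A4 was also present in the barcodes that the cell filter removed, which no comparison above used, and there again above the level of the normal samples. It was at 95.2 CPM in the 730 removed barcodes of Injury_1 and 54.2 CPM in the 612 of Injury_2, a mean of 74.7 CPM, against 6.59 CPM in the 1515 removed barcodes of Normal_1 and 2.27 CPM in the 857 of Normal_2. KRT15 was at 1554 and 2054 CPM in the removed barcodes of the injured and 624 and 407 CPM in those of the normal samples. It also differed in epithelial-like cells, at 4593 ± 246 CPM in injured and 2333 ± 529 CPM in normal samples (SD). KRT18 in the removed barcodes was at 804 and 819 CPM in the injured and 750 and 360 CPM in the normal samples. The part of epithelial RNA in the removed barcodes was not tested. AQP8 in the removed barcodes did not separate the groups, with 1.29 and 4.79 CPM in the injured and 6.84 and 4.26 CPM in the normal samples.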

How the results depend on the processing

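The injured minus normal difference in mean log2(CPM + 10) in epithelial-like cells was -2.19 for AQP8 and 2.82 for SLC44A4. For AQP8 it was -1.57 with mitochondrial share at most 10%, -2.54 with cells chosen by markers without clustering, -2.31 with TMM factors, -1.99 with equal weight for each sub-cluster and -4.12 with a pseudocount of 1 CPM, where SLC44A4 had 4.33. Leaving out each sample gave -2.24 to -2.14 and 2.48 to 3.16. The thinned share differed by -3.68 percentage points for AQP8 (-3.20 at 10% mitochondrial share, -8.54 at 3000 UMIs, -21.0 without thinning) and 9.75 for SLC44A4 (23.2 and 50.4 at the last 2 depths). The odds ratio of joint detection was 0 after thinning and 0.0984 without. No alternative turned a direction.

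Calls in epithelial-like cells numbered 122, and 960 without a filter on low counts, 507 with DESeq2, 50 with mitochondrial share at most 10%, 58 without Injury_1, 393 without Normal_1 and 476 without Normal_2, so leaving out single samples gave 58 to 476. The replicate numbers did not pair the samples (correlation of deviations 0.092), and 25 genes were called with the number as a block, LAMA3 among them, while CLDN1 and LAMB3 (adjusted p = 0.0514 each) and DUOX2 (0.0679) were lost; it changed no other call reported. The SLC44A4 log2 fold change in the C1QA-led macrophage-like cluster was 2.35 without cells holding UMIs of other types and 2.27 in all macrophage-like cells. The causes were not tested. Depth limits the normal cells of that cluster, with 3 and 7 SLC44A4 UMIs, and SLC44A4 in normal epithelium.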
